A study of Saccharomyces cerevisiae with 24 samples.

Results

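The galactose regulon of *Saccharomyces cerevisiae* was followed in a suppressor strain, in the *snf1*∆ mutant and in WT, as cultures passed from log phase to 24 hr and 48 hr. It was taken as 7 genes chosen by name out of the 6692 ORFs of the count table, namely the structural genes *GAL1*, *GAL10*, *GAL7* and *GAL2* and the regulators *GAL3*, *GAL80* and *GAL4*, and all 7 passed the filter on low counts. JS1416 carries *snf1*∆ and a spontaneous missense mutation of *CYC8* that replaces a glycine by a serine, and it arose as 1 suppressor isolate. JS1394 carries *snf1*∆ alone, a deletion that JS1416 shares, and JS1256 is the WT strain. The log, 24 hr and 48 hr samples of JS1416 had 1, 2 and 3 libraries, whereas *snf1*∆ and WT had 3 at each time. By the sample labels, every culture grew without any further treatment at 30 degrees in YPD with 2% glucose and the log sample was taken at 5 hr, while the study's methods give SC medium with the same share of glucose and a slightly later hour. Galactose is named in neither source. Replicates were separate cultures by the methods, and the labels do not say so. Counting error alone gives a chi-square per degree of freedom of about 1 between replicates. It was 1.62 for replicates 1 and 2 of WT at 24 hr and 2.06 for those of *snf1*∆ at 48 hr. Other pairs of replicates had 4.60 to 477. Whether both closest pairs came from separate cultures was not tested. The methods also describe aliquots of triplicate cultures taken at log and 24 hr, so these times of a strain may share cultures.

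As background, galactose enters the cell through the permease Gal2 and is converted to glucose-1-phosphate by the Leloir enzymes, galactokinase (Gal1), galactose-1-phosphate uridylyltransferase (Gal7) and the epimerase and mutarotase Gal10. The activator Gal4 binds upstream of these genes, Gal80 holds it inactive, and the sensor Gal3 relieves Gal80 when galactose is present. Glucose represses the regulon, in part through the DNA-binding repressor Mig1, which recruits the corepressor Cyc8-Tup1 and is phosphorylated by the kinase Snf1.

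The upstream sequences are shown because motifs of both arms of this control, Gal4 and Mig1, can be searched in them. The Gal4 motif was searched as CGGNNNNNNNNNNNCCG, which reads alike on both strands, within 500 bases of the start codon in R64, the build that sacCer3 also carries. It was present upstream of all 7 genes, against 2.98% of 6008 promoters, although Gal4 sites helped to define this regulon in the first place. *GAL1* (YBR020W, chromosome II, 279021 to 280607) and *GAL10* (YBR019C, chromosome II, 276253 to 278352) are divergent and share the same 3 matches in the 668 bases between them. *GAL2* (YLR081W, chromosome XII, 290212 to 291936) had 4 matches, of which 2 overlap each other. The capitals in the lines that follow mark the CGG and CCG of each match, and each single site is printed on the strand of its gene.
GAL1-GAL10 stretch, chrII:278560-278629, plus strand: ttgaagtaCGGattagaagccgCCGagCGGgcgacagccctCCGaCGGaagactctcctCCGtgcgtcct
GAL7 site, chrII:275703-275719: agcgctCGGacaactgttgaCCGtgatcc
GAL2 site farthest from the start codon, chrXII:289796-289812: aggcacCGGcggtctttcgtCCGtgcgga
GAL3 site, chrIV:463146-463162: cacgttCGGtccactgtgtgCCGaacatg
GAL80 site, chrXIII:171422-171438: atttacCGGcgcactctcgcCCGaacgac
GAL4 site, chrXVI:82810-82826: gacagaCGGtggcgcaggatCCGgtttaa
The coordinates of single sites cover the match, and 6 further bases are printed on each side. The *GAL7* site (gene YBR018C, chromosome II, 274427 to 275527) began 192 bases before the start codon, and that of *GAL80* (YML051W, chromosome XIII, 171594 to 172901) 172 bases before it. The *GAL4* site (gene YPL248C, chromosome XVI, 79711 to 82356) lay farther out, at 470 bases. Within 300 bases of the start codon the motif was found for 4 of the 7 genes, against 1.45% of promoters, since the matches of *GAL1*, *GAL2* and *GAL4* lie beyond that distance.

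Mig1 was searched on either strand as CCCC with A or C before it and with A or G and then C or G after it. This motif occurred in 11.7% of promoters and upstream of *GAL1*, *GAL10* and *GAL3*, where *GAL1* and *GAL10* share 1 match and *GAL3* (YDR009W, chromosome IV, 463434 to 464996) has 2. Capitals mark the motif.
GAL10 and GAL1, chrII:278827-278833, strand of GAL10: ttaattACCCCAGaaataa
GAL3, first, chrIV:463136-463142: gcacttACCCCACgttcgg
GAL3, second, chrIV:463350-463356: ttgacaACCCCAGgtattc
The first of the *GAL3* matches lies next to its Gal4 match, and the second begins 84 bases before the start codon. These are matches of letters and were not measured as binding.

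Library totals ran from 747098 to 29070805 counts, and a member had between 6 counts (*GAL2* in JS1416 replicate 3 at 48 hr) and 2838 counts (*GAL80* in JS1416 replicate 2 at 48 hr) in a library. Levels are given as CPM, the counts after scaling each library to a common total with TMM factors, which allow for abundant genes that take up much of a library. *SNF1* stayed at or below 4.08 CPM in every JS1416 and *snf1*∆ library, against 46.2 to 71.7 CPM in WT. Calls rest on an adjusted p under 0.05 in edgeR's quasi-likelihood test, fitted to all 24 libraries with Benjamini-Hochberg adjustment over 6616 genes. The RNA is bulk, so fewer expressing cells and less RNA per cell cannot be told apart. At 48 hr, 2 libraries stood apart from their labels. Across genes, the library labelled JS1416 replicate 1 correlated at 0.984 and 0.980 with the first 2 replicates of *snf1*∆, and at only 0.928 and 0.884 with its own group. The library labelled *snf1*∆ replicate 3 likewise correlated at 0.984 and 0.939 with the other 2 of JS1416, and at 0.905 and 0.901 with its own group. They were kept under their labels, and the counts of calls at 48 hr are also given without both.

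Annotated noncoding RNAs overlap 3 of the members. The *GAL10* lncRNA (YNCB0008W, chromosome II, 276805 to 280645) covers all of *GAL1* on the same strand and 73.7% of *GAL10* on the opposite strand, and YNCP0002W runs antisense over the whole of *GAL4*. In 8 pairs of nested coding genes on opposite strands, the inner gene had 0.815 to 2.25 times (median 1.18) the counts per base of the outer one, so the deposited counts did not separate strands there. Reads of these RNAs would therefore be counted with *GAL1*, *GAL10* and *GAL4*, and their part in the values was not tested. *GAL7*, *GAL2*, *GAL3* and *GAL80* overlap no annotated gene, and no 75-base stretch of any member occurs elsewhere in the genome.

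In log phase the structural genes stood low among all genes, as did *GAL3* and *GAL4*, and no member was called between *snf1*∆ and WT. *GAL7* averaged 1.40 ± 0.337 CPM in *snf1*∆ and 1.32 ± 0.281 CPM in WT (SD, 3 libraries each here and in what follows), and 1.63% of 5969 annotated genes lay below it per kb of ORF in WT. *GAL2* averaged 5.15 ± 0.135 CPM in *snf1*∆ and 4.14 ± 0.573 CPM in WT. *GAL10* averaged 10.2 ± 0.684 CPM in *snf1*∆ and 8.58 ± 0.698 CPM in WT, and *GAL1* 14.2 ± 0.847 CPM in *snf1*∆ and 13.1 ± 1.25 CPM in WT, so that these genes stayed low in both strains. Per kb in WT, 3.32% of genes lay below *GAL2*, 5.91% below *GAL10* and 14.3% below *GAL1*. Of the regulators, *GAL3* lay above 4.19% and *GAL4* above 14.3%. The inhibitor gene *GAL80* stood far above the rest, with 64.4 ± 2.45 CPM in *snf1*∆ and 63.0 ± 3.15 CPM in WT, and 66.7% of genes lay below it per kb in WT. edgeR's quasi-likelihood test called 0 of the 7 genes between *snf1*∆ and WT at log, with 0 at an unadjusted p under 0.05 and 0 by DESeq2, where 2.12% of all genes were called. For *GAL10*, *GAL2* and *GAL4* every *snf1*∆ library nevertheless lay above every WT library. The share of all genes without overlap at log is not given here, so the regulon cannot be set against it.

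The single JS1416 library at log lay outside the range of the 6 other log libraries for *GAL3*, *GAL7*, *GAL4* and *GAL10*, and by most for *GAL3*. The share of all genes outside that range was not computed, so the regulon cannot be set against it. *GAL3* had 12.1 CPM there (192 counts, exact Poisson 95% interval 10.4 to 13.9, counting error only), against 3.55 to 4.05 CPM in *snf1*∆ and 3.36 to 5.58 CPM in WT. It was thus above all 6, by a log2 difference of 1.63 from *snf1*∆ and 1.41 from WT, which has no replicate check and no test. *GAL80* had 64.7 CPM (60.8 to 68.7) and *GAL1* 13.6 CPM (11.9 to 15.6) in the same library, beside the levels of both other strains. *GAL7* had 2.20 CPM (1.53 to 3.06), against 1.08 to 1.75 CPM in *snf1*∆ and 1.15 to 1.65 CPM in WT. *GAL4* had 29.0 CPM (26.4 to 31.8), against 24.7 to 27.1 CPM in *snf1*∆ and 21.6 to 21.9 CPM in WT. *GAL10* had 7.66 CPM (6.36 to 9.14), against 9.72, 9.99 and 11.02 CPM in *snf1*∆ and 7.78 to 9.10 CPM in WT. For these 3 genes the nearest of the other libraries lay within the counting interval.

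**Figure D1:**
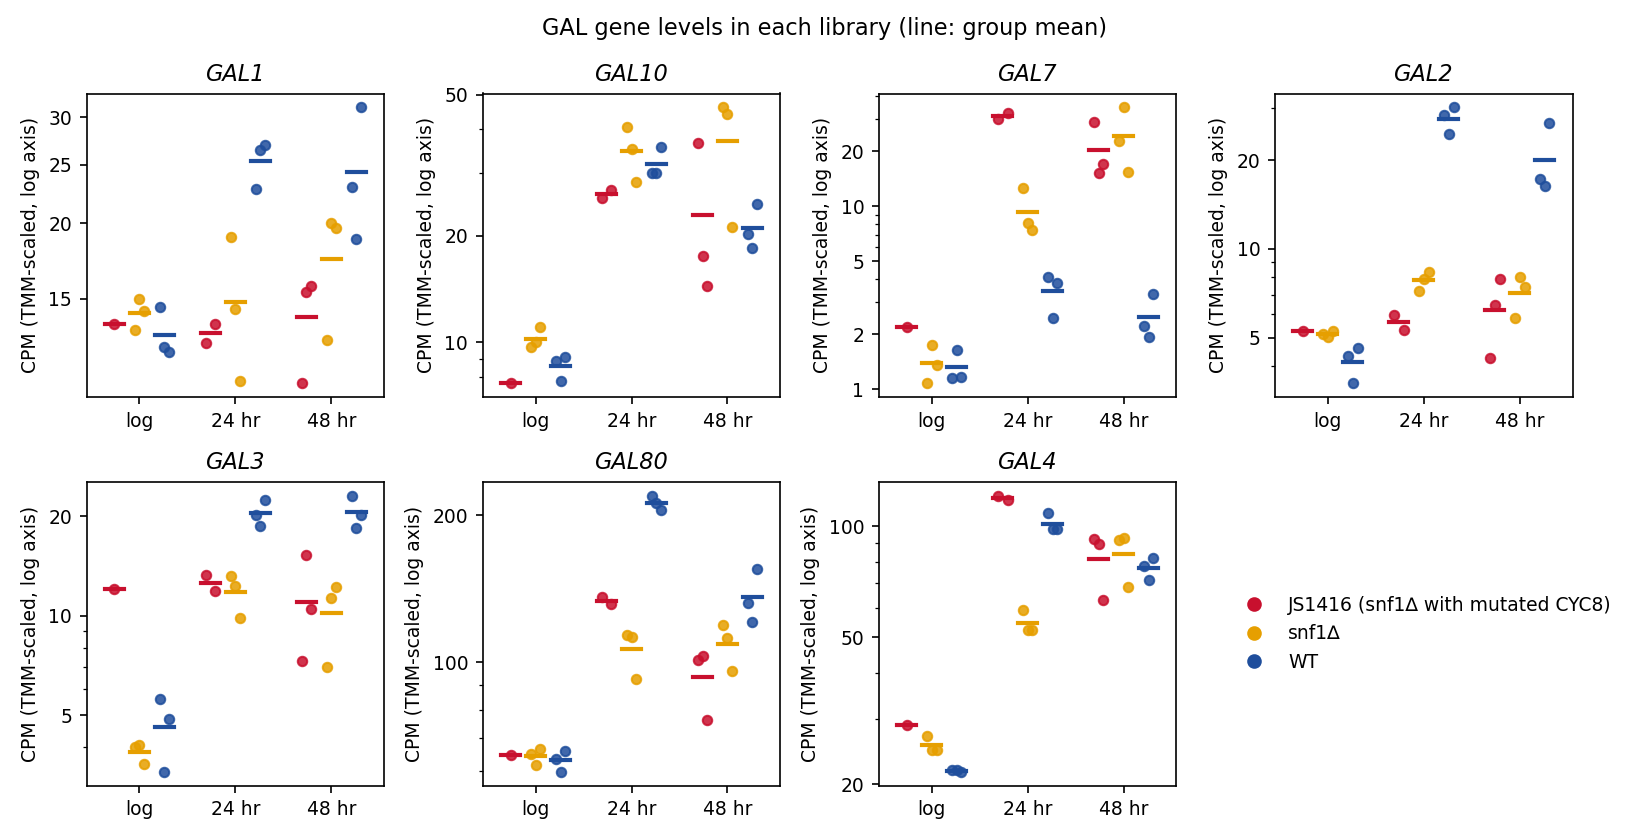
CPM of each member (vertical log axis, scaled to each gene) in every library at log, 24 hr and 48 hr, with JS1416, *snf1*∆ and WT from left to right at each time; points are libraries and lines are group means. *GAL2* lies between 24.5 and 30.2 CPM in WT at 24 hr and at most at 8.38 CPM in the others, while *GAL7* is at most at 4.09 CPM in WT and reaches 29.9 and 32.3 CPM in JS1416.

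From log to 24 hr all 7 members rose in WT, where 41.2% of all genes were called higher. Their median log2 change was 1.90, against 0.10 over all genes. The permease gene *GAL2* had 28.4, 24.5 and 30.2 CPM at 24 hr in WT, against 4.33, 3.50 and 4.60 CPM at log, a log2 fold change of 2.75 (SE 0.20, adjusted p = 7.84e-11 by edgeR). All 3 libraries at 24 hr were above all 3 at log, and this was the largest rise among the members. *GAL4* followed with 2.22 (SE 0.14), the sensor gene *GAL3* with 2.17 (SE 0.24), *GAL10* with 1.90 (SE 0.27) and *GAL80* with 1.75 (SE 0.14). *GAL7* changed by 1.35 (SE 0.41, adjusted p = 0.00492) and *GAL1* by 0.96 (SE 0.20). *GAL7* nevertheless reached only 4.09, 2.47 and 3.82 CPM. Scaled by library size alone, which moved the median of all genes to -0.41, the change of *GAL1* was 0.46 and no longer passed the test (adjusted p = 0.0706).

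In *snf1*∆, 6 of the 7 members rose between log and 24 hr, where 36.5% of all genes were called higher, but the order of the genes was another one. In *snf1*∆ it was *GAL7* that rose most, with 12.5, 8.09 and 7.44 CPM at 24 hr against 1.08, 1.75 and 1.37 CPM at log, a log2 fold change of 2.62 (SE 0.32). *GAL10* rose by 1.75, *GAL3* by 1.58, *GAL4* by 1.10, *GAL80* by 0.72 and *GAL2* by 0.62. The *GAL2* call was lost without *snf1*∆ replicate 3 at 24 hr (0.56, adjusted p = 0.0507) and with library size alone (0.46, adjusted p = 0.0722). *GAL1*, which encodes the first enzyme of the pathway, had 19.0, 14.4 and 10.9 CPM at 24 hr, against 13.3, 15.0 and 14.3 CPM at log, so that the libraries overlapped (log2 0.02, SE 0.21, adjusted p = 0.929).

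At 24 hr itself, *snf1*∆ differed from WT in 6 of the 7 members, where 64% of all genes were called, and in 6 of 7 the libraries did not overlap, as in 74.4% of all genes. *GAL2* differed most. It had 7.22, 7.89 and 8.38 CPM in *snf1*∆, against 28.4, 24.5 and 30.2 CPM in WT (log2 -1.81, SE 0.20, adjusted p = 1.21e-07 by edgeR). *GAL80* had 114, 113 and 92.5 CPM in *snf1*∆, against 219, 212 and 205 CPM in WT (log2 -0.999, SE 0.13). *GAL4* had 59.4, 52.4 and 52.2 CPM in *snf1*∆, against 108, 98.2 and 98.0 CPM in WT (log2 -0.89, SE 0.14). The activator and its inhibitor were thus both lower in *snf1*∆, with no overlap between the libraries.

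The remaining members split. *GAL1* was lower in *snf1*∆, with 10.9 to 19.0 CPM against 22.8 to 26.9 CPM in WT (log2 -0.82, SE 0.21, adjusted p = 0.00209), and so was *GAL3*, with 9.83 to 13.2 CPM against 18.6 to 22.4 CPM (log2 -0.82, SE 0.23, adjusted p = 0.00448). With library size alone, which put the median of all genes at 0.51 in place of 0.10, neither *GAL1* (-0.40, adjusted p = 0.128) nor *GAL3* (-0.40, adjusted p = 0.194) passed. *GAL10* had 40.4, 35.0 and 28.4 CPM in *snf1*∆ and 30.1, 30.1 and 35.6 CPM in WT, so its libraries overlapped (log2 0.10, SE 0.25, adjusted p = 0.748). It was called higher in *snf1*∆ with library size alone (0.51, adjusted p = 0.0288). *GAL7* was the only member called higher in *snf1*∆, with 12.5, 8.09 and 7.44 CPM against 4.09, 2.47 and 3.82 CPM in WT (log2 1.40, SE 0.35, adjusted p = 0.00159). Every *snf1*∆ library lay above every WT library, but on 42 to 87 counts in *snf1*∆ and 11 to 22 in WT. The change from log to 24 hr was itself different between *snf1*∆ and WT in 5 of the 7 members when tested in the same edgeR model, where 54.9% of all genes differed. It was smaller in *snf1*∆ for *GAL2*, *GAL4*, *GAL80* and *GAL1*, and larger for *GAL7*.

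In JS1416 at 24 hr, 2 members were higher than in *snf1*∆ and none was called lower, where 47.5% of all genes were called in either direction. The libraries of 5 members did not overlap, as in 75.1% of all genes. *GAL7* had 29.9 and 32.3 CPM in JS1416, against 12.5, 8.09 and 7.44 CPM in *snf1*∆ (log2 1.78, SE 0.30, adjusted p = 6.51e-05 by edgeR). *GAL4* had 121 and 118 CPM in JS1416, against 59.4, 52.4 and 52.2 CPM in *snf1*∆ (log2 1.13, SE 0.15, adjusted p = 4.44e-06). For both genes each JS1416 library was above each *snf1*∆ library. Both calls held at a smaller size with library size alone, *GAL7* at 0.96 (SE 0.26, adjusted p = 0.00289) and *GAL4* at 0.31 (SE 0.12, adjusted p = 0.0259), where the median of all genes was -0.98.

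The permease gene, the most reduced member in *snf1*∆, was not higher in JS1416. *GAL2* had 5.98 and 5.29 CPM in JS1416, against 7.22 to 8.38 CPM in *snf1*∆ (log2 -0.48, SE 0.24, adjusted p = 0.110), and both JS1416 libraries lay below the *snf1*∆ ones. *GAL1* (-0.14, SE 0.24), *GAL10* (-0.39, SE 0.28) and *GAL3* (0.13, SE 0.26) were not called. *GAL80* had 136 and 132 CPM in JS1416, against 92.5 to 114 CPM in *snf1*∆ (log2 0.33, SE 0.15, adjusted p = 0.0713), and its direction depended on the scaling. It was called higher with RLE size factors (0.44, adjusted p = 0.0234) and lower with library size alone (-0.47, adjusted p = 0.00256), where the median of all genes was likewise -0.98 in place of -0.16 and all 7 members were called, *GAL3* among them at -0.69. Library size alone called 4888 of 6616 genes in this comparison, 4388 of them lower.

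Set against WT at 24 hr, JS1416 differed in 5 of the 7 members, where 43% of all genes were called, and the libraries of all 7 did not overlap, as in 73.1% of all genes. *GAL7* had 29.9 and 32.3 CPM in JS1416, against 4.09, 2.47 and 3.82 CPM in WT (log2 3.17, SE 0.34, adjusted p = 4.82e-07), and *GAL2* had 5.98 and 5.29 CPM, against 28.4, 24.5 and 30.2 CPM (log2 -2.29, SE 0.23, adjusted p = 2.59e-07). The uridylyltransferase gene and the permease gene thus moved in opposite directions in the same libraries. *GAL1* was lower in JS1416 (-0.96, SE 0.24), as was *GAL80* (-0.67, SE 0.15). *GAL3* was called lower (-0.69, SE 0.26, adjusted p = 0.0351), a call lost without JS1416 replicate 1 (-0.78, adjusted p = 0.103), JS1416 replicate 2 (-0.62, adjusted p = 0.165), WT replicate 1 (-0.70, adjusted p = 0.0587) or WT replicate 3 (-0.61, adjusted p = 0.103), and with DESeq2 (-0.62, adjusted p = 0.0711). *GAL4* (0.23, adjusted p = 0.220) and *GAL10* (-0.29, adjusted p = 0.435) were not called. The comparisons of JS1416 with *snf1*∆ and with WT share the JS1416 libraries, and those of *snf1*∆ with WT share libraries with both.

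**Figure D2:**
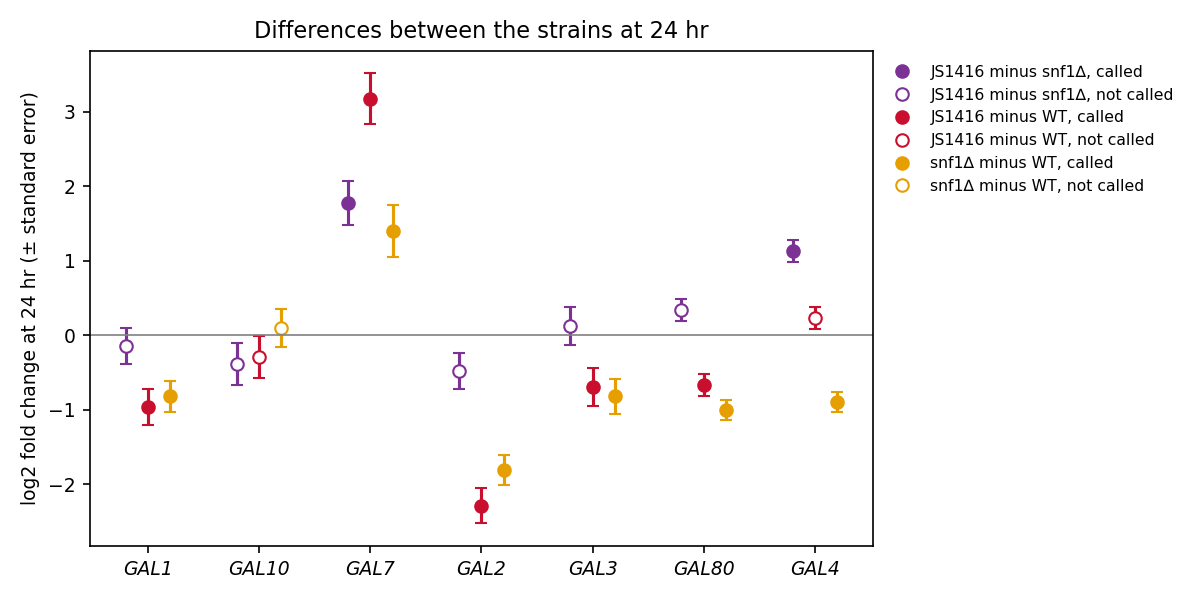
Log2 fold changes at 24 hr (vertical axis) of the 7 members for JS1416 minus *snf1*∆, JS1416 minus WT and *snf1*∆ minus WT; bars are standard errors, filled points were called and open points were not. *GAL7* is positive in all 3 comparisons (1.78, 3.17 and 1.40), *GAL2* is called lower against WT in both mutants (-2.29 and -1.81), and *GAL4* is near 0 only for JS1416 minus WT (0.23).

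The 3 clustered genes of chromosome II therefore differed from one another. *GAL7* lies downstream of *GAL10* on the same strand, followed by the karyopherin gene *KAP104*, and *FUR4*, the uracil permease gene, lies on the other side of *GAL1*. Within a library, the ratio of *GAL7* to *GAL10* in CPM per kb of ORF does not depend on the scaling of libraries. At 24 hr it was 2.23 and 2.30 in JS1416, 0.440 to 0.590 in *snf1*∆ and 0.157 to 0.259 in WT, so that the strains did not overlap. At log it was 0.547 in the JS1416 library, 0.212 to 0.334 in *snf1*∆ and 0.246 to 0.404 in WT. Per kb, *GAL7* in JS1416 at 24 hr was above 49.8% of 5969 genes, against 13.7% in *snf1*∆ and 5.73% in WT.

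The flanking genes differed between the strains as well. *KAP104* averaged 46.4 ± 1.97 CPM in JS1416 at 24 hr (SD, 2 libraries), 71.1 ± 4.44 CPM in *snf1*∆ and 44.2 ± 2.98 CPM in WT (3 each), called lower in JS1416 than in *snf1*∆ (log2 -0.61, SE 0.15), higher in *snf1*∆ than in WT (0.69, SE 0.13), and not called between JS1416 and WT (0.07, adjusted p = 0.721). *FUR4* averaged 33.8 ± 1.67 CPM in JS1416, 13.8 ± 2.64 CPM in *snf1*∆ and 15.7 ± 2.28 CPM in WT, called higher in JS1416 than in *snf1*∆ (1.32, SE 0.21) and than in WT (1.11, SE 0.21, adjusted p = 2.39e-04), and not called between *snf1*∆ and WT (-0.21, adjusted p = 0.375).

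**Figure D3:**
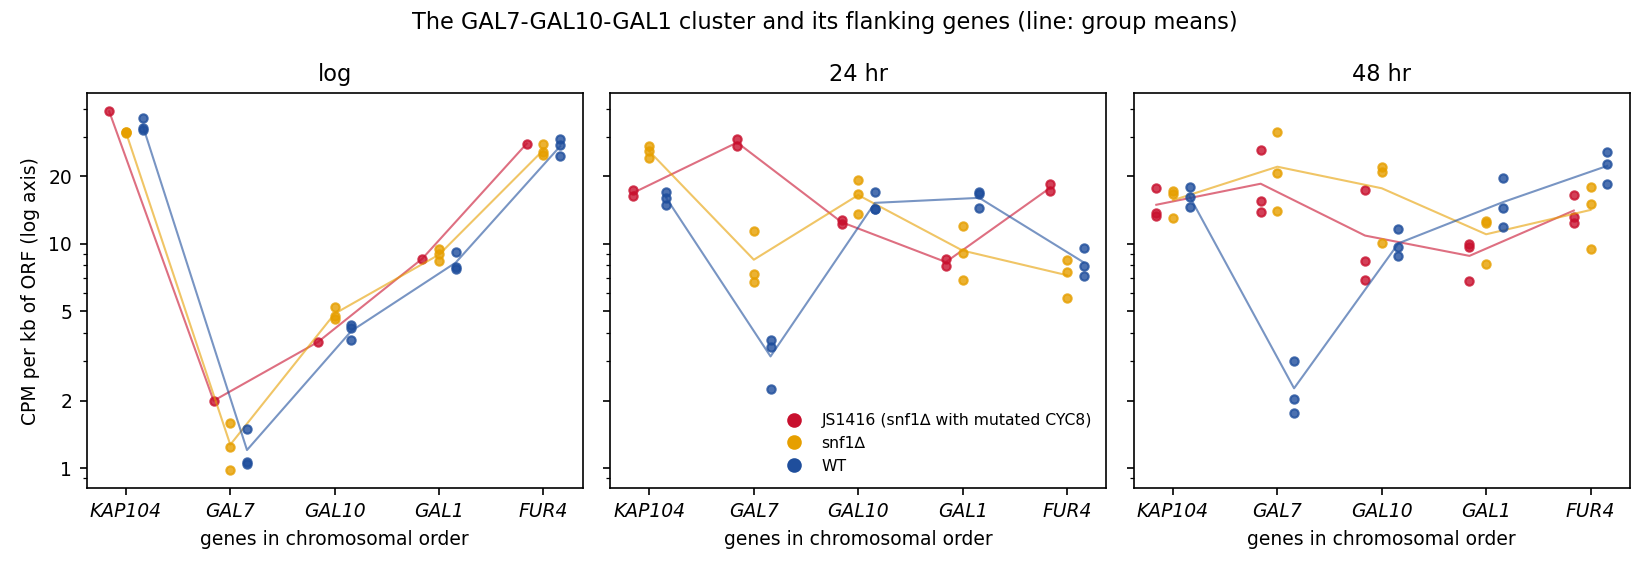
CPM per kb of ORF (vertical log axis) of the *GAL7*, *GAL10* and *GAL1* cluster and its flanking genes in chromosomal order, at log, 24 hr and 48 hr; points are libraries, and lines join the group means of JS1416, *snf1*∆ and WT. At 24 hr the mutants differ from WT most at *GAL7*, with log2 fold changes of 3.17 for JS1416 and 1.40 for *snf1*∆.

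Among the regulators, the balance of inhibitor and activator mRNA also separated the suppressor. The ratio of *GAL80* to *GAL4* per kb at 24 hr was 2.26 and 2.28 in JS1416, 3.58 to 4.36 in *snf1*∆ and 4.10 to 4.37 in WT. JS1416 lay below both other strains, which overlapped each other. At log the ratio was 4.51 in the JS1416 library, 4.86 to 5.42 in *snf1*∆ and 5.53 to 6.17 in WT. By 48 hr it was 2.22 to 2.44 in JS1416 and 2.45 to 2.84 in *snf1*∆, with barely a gap, and 3.41 to 3.85 in WT. Without both libraries that stood apart it was 2.33 and 2.44 in JS1416 and 2.64 and 2.45 in *snf1*∆ at 48 hr. These ratios are given as measured, with no test, and *GAL4* carries the antisense overlap named above.

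**Figure D4:**
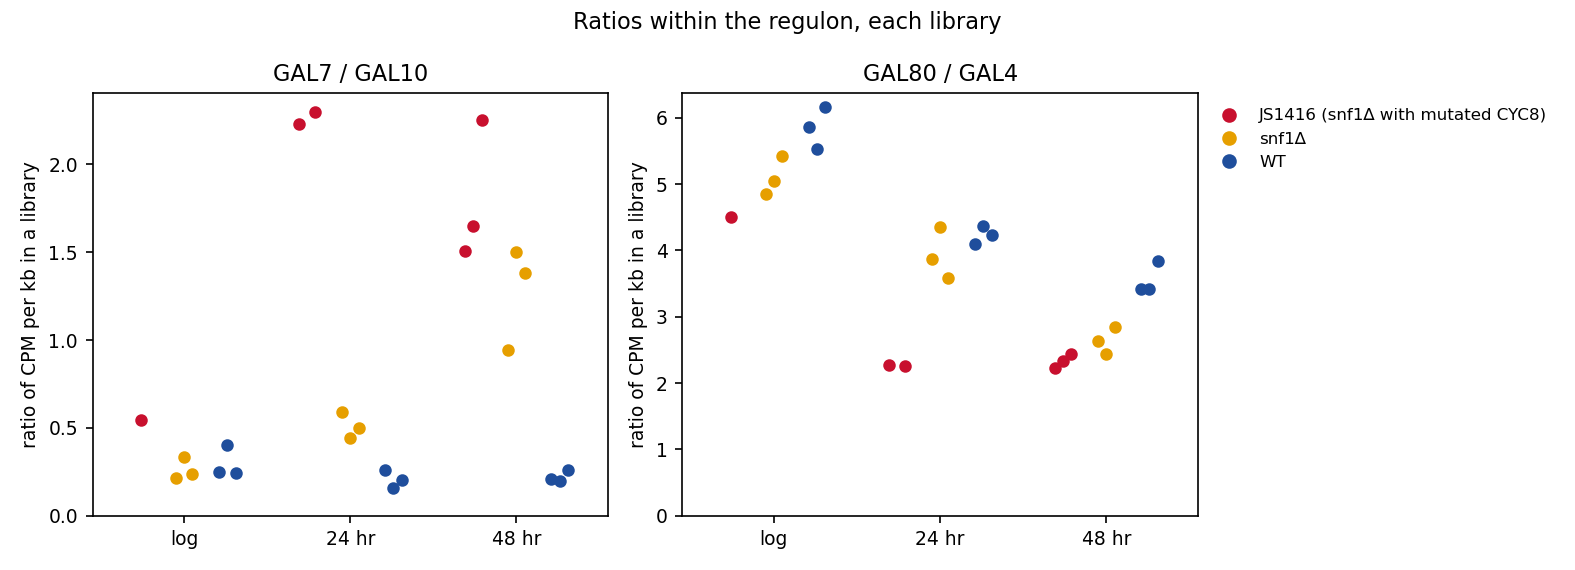
Ratio of CPM per kb within each library (vertical axes) for *GAL7* over *GAL10* and for *GAL80* over *GAL4*, at log, 24 hr and 48 hr, with JS1416, *snf1*∆ and WT from left to right at each time. At 24 hr the 2 JS1416 libraries have *GAL7* over *GAL10* at 2.23 and 2.30 and *GAL80* over *GAL4* at 2.26 and 2.28.

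At 48 hr, 4 members were called between *snf1*∆ and WT, where 35.8% of all genes were called. *GAL7* had 22.7, 34.7 and 15.4 CPM in *snf1*∆, against 2.23, 1.94 and 3.32 CPM in WT (log2 3.23, SE 0.35, adjusted p = 9.03e-07 by edgeR), and only 0.484% of tested genes had a higher log2 fold change. *GAL2* had 5.83, 8.01 and 7.42 CPM in *snf1*∆, against 17.3, 16.4 and 26.7 CPM in WT (-1.52, SE 0.24). Neither gene's libraries overlapped. Without both libraries that stood apart, 4 members were called as well, *GAL7* at 3.47, *GAL2* at -1.57, *GAL3* at -1.19 (adjusted p = 8.23e-04) and *GAL10*. In that fit 3402 of 6615 genes were called.

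The other 48 hr calls against WT were less steady. *GAL3* was lower in *snf1*∆ (-1.02, SE 0.27, adjusted p = 0.00679), a call lost without *snf1*∆ replicate 1 (-0.81, adjusted p = 0.0559). *GAL10* had 46.1, 44.0 and 21.2 CPM in *snf1*∆, against 20.3, 18.5 and 24.5 CPM in WT (0.80, SE 0.27, adjusted p = 0.0284). Its groups overlapped through *snf1*∆ replicate 3, and the call was lost without WT replicate 1 (0.77, adjusted p = 0.0710), WT replicate 2 (0.71, adjusted p = 0.0848), *snf1*∆ replicate 1 (0.60, adjusted p = 0.164) or *snf1*∆ replicate 2 (0.66, adjusted p = 0.128), while without both libraries that stood apart it was 1.09 (adjusted p = 1.24e-05). *GAL1* (-0.49, adjusted p = 0.111), *GAL80* (-0.32, adjusted p = 0.0740) and *GAL4* (0.12, adjusted p = 0.519) were not called. *GAL1* and *GAL80* passed without WT replicate 2 (-0.63, adjusted p = 0.0479, and -0.40, adjusted p = 0.0463).

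JS1416 at 48 hr differed from WT in 5 members, where 31% of all genes were called. *GAL7* was higher, with 28.9, 15.2 and 17.1 CPM in JS1416 against 2.23, 1.94 and 3.32 CPM in WT (3.04, SE 0.33, adjusted p = 9.90e-07). *GAL2* (-1.83, SE 0.21), *GAL1* (-0.84, SE 0.21), *GAL3* (-0.84, SE 0.23) and *GAL80* (-0.52, SE 0.14) were lower. The *GAL3* call was lost without JS1416 replicate 1 (-0.51, adjusted p = 0.0655). With only the groups compared in the fit, *GAL1*, *GAL3* and *GAL80* were not called (adjusted p of 0.0857, 0.103 and 0.185). Without both libraries that stood apart, the same 5 members were called, *GAL7* at 2.59, *GAL2* at -1.63, *GAL1* at -0.67 (adjusted p = 0.0159), *GAL3* at -0.50 (adjusted p = 0.0428) and *GAL80* at -0.53 (adjusted p = 0.00300). In that fit 2799 of 6615 genes were called.

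Between JS1416 and *snf1*∆ at 48 hr, edgeR's quasi-likelihood test called 0 of the 7 members, with 0 at an unadjusted p under 0.05 and 0 by DESeq2, and 0% of all genes were called, with 275 genes at an unadjusted p under 0.05. *GAL10* and *GAL7* divided along the libraries that stood apart. *GAL10* had 36.5, 17.6 and 14.4 CPM in JS1416 replicates 1, 2 and 3, against 46.1, 44.0 and 21.2 CPM in *snf1*∆ replicates 1, 2 and 3, and *GAL7* had 28.9, 15.2 and 17.1 CPM against 22.7, 34.7 and 15.4 CPM. JS1416 replicate 1 lay among *snf1*∆ replicates 1 and 2 or near them, and *snf1*∆ replicate 3 near JS1416 replicates 2 and 3. Without both of these libraries, *GAL10* (-1.40, adjusted p = 4.61e-06) and *GAL7* (-0.88, adjusted p = 0.0101) were called lower in JS1416, and without JS1416 replicate 1 alone *GAL10* was (-1.11, adjusted p = 0.0121). In these fits 3027 of 6615 and 1155 of 6615 genes were called, so calls rose across the whole table. Both libraries had been singled out by correlations in these same data. The other 5 members were not called without both. Tested directly, the difference between JS1416 and *snf1*∆ was lower at 48 hr than at 24 hr for *GAL7*, *GAL4* and *GAL80*, 3 of the 7 members, where 33.1% of all genes changed in this way or the opposite one.

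From 24 hr to 48 hr, 2 members were called in each strain, and the change in either mutant was not tested against that in WT. In *snf1*∆ 2 members were called, where 41.3% of all genes were, and both rose, *GAL7* by 1.40 (SE 0.31, adjusted p = 0.00127) and *GAL4* by 0.62 (SE 0.14, adjusted p = 0.00157). Without both libraries that stood apart these were 1.67 and 0.76, again the only members called, where 3566 of 6615 genes were. With library size alone, which put the median of all genes at -0.46, *GAL4* in *snf1*∆ stood at 0.16 and was not called (adjusted p = 0.252), and *GAL80* was called lower (-0.41, adjusted p = 0.00627). In WT 2 members were called, where 39.3% of all genes were, and both fell, *GAL80* with -0.64 (SE 0.13) and *GAL4* with -0.39 (SE 0.14, adjusted p = 0.0263). The WT *GAL4* call was lost without WT replicate 1 at 24 hr (-0.35, adjusted p = 0.0925), replicate 1 at 48 hr (-0.40, adjusted p = 0.0594) or replicate 2 at 48 hr (-0.34, adjusted p = 0.0972), and *GAL2* (-0.45, adjusted p = 0.0536) passed without WT replicate 3 at 48 hr (-0.72, adjusted p = 0.00386). In WT, library size alone put the median of all genes at 0.46, *GAL4* turned to 0.09 and 0 members were called there.

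In JS1416, *GAL80* (-0.49, SE 0.15, adjusted p = 0.0272) and *GAL4* (-0.51, SE 0.15, adjusted p = 0.0224) were lower at 48 hr than at 24 hr, where 18.7% of all genes were called. Both calls were lost without JS1416 replicate 1 at 24 hr (-0.47 and -0.50), replicate 2 at 24 hr (-0.52 and -0.53) or replicate 3 at 48 hr (-0.38 and -0.39), and with library size alone *GAL80* stood at 0.00. *GAL7* (-0.57, adjusted p = 0.176) passed without JS1416 replicate 1 at 48 hr (-1.0, adjusted p = 0.0141). Without both libraries that stood apart, *GAL80* (-0.50, adjusted p = 0.0101), *GAL4* (-0.55, adjusted p = 0.00269), *GAL7* (-1.0, adjusted p = 0.00176) and *GAL10* (-0.61, adjusted p = 0.0122) were all called lower. In that fit 2325 of 6615 genes were called.

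Of 8 other genes of galactose use or listed as Gal4 targets, JS1416 at 24 hr had 5 above and 1 below *snf1*∆, and 1 was higher and 4 lower in *snf1*∆ than in WT, where 47.5% and 64% of all genes were called in these comparisons. *PGM2*, the major phosphoglucomutase, which feeds the product of the pathway into glycolysis, averaged 817 ± 22.6 CPM in JS1416, 369 ± 43.6 CPM in *snf1*∆ and 1285 ± 32.3 CPM in WT (SD, log2 fold changes of 1.15 for JS1416 minus *snf1*∆, -1.80 for *snf1*∆ minus WT). *MTH1*, a regulator of glucose sensing, averaged 525 ± 6.73 CPM in JS1416, 54.9 ± 14.2 CPM in *snf1*∆ and 289 ± 27.9 CPM in WT (3.27 and -2.40). *UGP1*, the UDP-glucose pyrophosphorylase (0.88 and -0.48), and *GCY1*, a glycerol dehydrogenase (1.19 and -1.13), moved the same way, *FUR4* was called only in the first comparison (1.32), and *LAP3*, an aminopeptidase, moved the other way (-1.49 and 0.56). The minor isoform *PGM1* and the cyclin *PCL10* were called in neither comparison. Scaled by library size alone, *UGP1* at 24 hr averaged 935 CPM in JS1416, 888 CPM in *snf1*∆ and 933 CPM in WT. With that scaling 4 in place of 6 of the 8 genes were called between JS1416 and *snf1*∆.

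Among 7 genes of repressors and corepressors of the regulon, JS1416 at 24 hr had 4 above *snf1*∆ and none called below it, and 1 was higher and 4 lower in *snf1*∆ than in WT, again beside 47.5% and 64% of all genes. With library size alone, 2 in place of 5 were called between *snf1*∆ and WT. *MIG1*, whose product binds the Mig1 motif, averaged 114 ± 1.62 CPM in JS1416, 29.5 ± 4.76 CPM in *snf1*∆ and 63.3 ± 2.75 CPM in WT (1.96 and -1.10). Its relative *MIG2* had log2 differences of 2.12 and -1.78, and *CYC8*, the gene mutated in JS1416, of 0.89 and -0.64. Scaled by library size alone, *CYC8* averaged 47.6 CPM in JS1416, 45.1 CPM in *snf1*∆ and 52.8 CPM in WT. *NRG1* was higher in JS1416 than in *snf1*∆ (1.60), *NRG2* was higher in *snf1*∆ than in WT (2.66), *MIG3* was lower in *snf1*∆ than in WT (-0.64), and *TUP1* was called in neither comparison. At 48 hr, 0 of these 7 genes and 0 of the 8 above were called by edgeR between JS1416 and *snf1*∆, with 0 at an unadjusted p under 0.05 and 0 by DESeq2. Of all genes, 0% were called there. Without both libraries that stood apart, 5 of these 7 genes and 3 of the 8 were called, where 3027 of 6615 genes were.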

How the data were processed

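RNA was measured in 24 libraries of 9 groups, and all 24 columns of values were used. Per the study's methods and the submitters' processing notes, the authors used bowtie2 to map 75-base single-end reads to sacCer3 and bedtools multicov to count them per ORF, and deposited whole-number counts without normalization. The strand option is not given in the sources used here. Totals of 747098 to 29070805 counts set the precision.

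The tests used edgeR 4.0.16 under R 4.3.3 (TMM factors, filter by group keeping 6616 genes, 1 two-sided quasi-likelihood model of 9 groups, common dispersion 0.0378, Benjamini-Hochberg adjustment, calls at an adjusted p under 0.05). Differences of effects were contrasts of that model. Its code was tested on simulated data for simple contrasts between groups, and not for the differences of effects. The single JS1416 library at log entered no test. Named genes were the 7 members, *SNF1*, fixed lists of other pathway genes, repressors and flanking genes, and the 3 genes best correlated with each member. Members and lists were chosen with earlier results of these data known. Of the ORFs, 6008 matched R64 by name. Replicate numbers paired samples only for *snf1*∆ and WT at log (1 of 21 pairs of groups with every correlation over 0.1), where the block changed no member's call. Alternatives were other scalings, filters and thresholds, DESeq2 1.42.0, only the groups compared, a replicate block, no 48 hr libraries, and each library or both that stood apart left out.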

Additional observations from a re-analysis of the deposited data

Results flagged for a closer look

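For 5 members the change from log to 24 hr differed between *snf1*∆ and WT when the difference itself was tested in edgeR, where 54.9% of all genes differed. The change was smaller in *snf1*∆ for *GAL2* (log2 -2.13, SE 0.28), *GAL4* (-1.12, SE 0.19), *GAL80* (-1.03, SE 0.19) and *GAL1* (-0.94, SE 0.29, adjusted p = 0.00952), and larger for *GAL7* (1.27, SE 0.52, adjusted p = 0.0433). The *GAL7* difference did not pass without WT replicate 2 at log (1.06), WT replicate 2 or 3 at 24 hr (1.08 and 1.38), *snf1*∆ replicate 1 or 3 at log (1.14 and 1.24) or *snf1*∆ replicate 1 at 24 hr (1.04), and the *GAL1* difference did not pass with library size alone (-0.60, adjusted p = 0.118).

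The difference between JS1416 and *snf1*∆ changed between 24 hr and 48 hr for 3 members, where 33.1% of all genes did so. It was lower at 48 hr for *GAL7* (-1.97, SE 0.42, adjusted p = 0.00143), *GAL4* (-1.14, SE 0.21, adjusted p = 3.07e-04) and *GAL80* (-0.53, SE 0.20, adjusted p = 0.0499). Without both 48 hr libraries that stood apart these were -2.68, -1.30 and -0.63, all past the threshold, as were 3542 of 6615 genes. Leaving out any of 7 single libraries ended the *GAL80* call (-0.58 to -0.44 over them: *snf1*∆ replicates 2 and 3 and JS1416 replicates 1 and 2 at 24 hr, *snf1*∆ replicates 1 and 2 and JS1416 replicate 3 at 48 hr), and with library size alone *GAL80* turned to 0.41 and *GAL4* (-0.18, adjusted p = 0.475) was not called.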

How the results depend on the processing

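The calls of *GAL7* and *GAL2* against WT at 24 hr and 48 hr, and of *GAL7* and *GAL4* in JS1416 against *snf1*∆ at 24 hr, kept their direction and side of the threshold in every alternative that tested them. *GAL2* and *GAL3* were not tested with at least 10 counts in every library, which lowers the number of members that could be called. Depth limits the 48 hr comparisons most, where *GAL2* and *GAL3* rest on 6 and 8 counts in the shallowest library.

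The number of members called moved by more than 1.5 times as follows, and by at most 1.5 times under the other settings that kept every library. With upper-quartile scaling it was 1 for 48 hr against 24 hr in WT and 1 in JS1416. With library size alone it was 7 for JS1416 against *snf1*∆ at 24 hr and 0 for 48 hr against 24 hr in WT and in JS1416. In the same order, 4888, 3097 and 3032 of 6616 genes were called. With at least 10 counts in every library it was 3 for JS1416 against WT at 24 hr and at 48 hr, and 1 for 48 hr against 24 hr in WT. At an adjusted p under 0.01 it was 1 for the WT change and 0 for the JS1416 change after 24 hr. With only the groups compared it was 2 for JS1416 against WT at 48 hr and 0 for 48 hr against 24 hr in JS1416. Without both libraries that stood apart it was 4 for JS1416 against *snf1*∆ at 24 hr, 2 for the same at 48 hr, and 4 for 48 hr against 24 hr in WT and in JS1416. In the same order, 4113, 3027, 3647 and 2325 of 6615 genes were called. Calls also rose where no 48 hr library was compared, from 140 to 603 genes for *snf1*∆ against WT at log. Among the smaller moves, library size alone gave 6 for *snf1*∆ against WT at 48 hr and DESeq2 gave 3 for JS1416 against *snf1*∆ at 24 hr. Within 300 bases the Gal4 motif was left in 4 members.

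Leaving out 1 library gave 1 to 3 members for 48 hr against 24 hr in WT, 0 to 3 in JS1416, 2 to 5 for *snf1*∆ against WT at 48 hr, and 0 to 1 for JS1416 against *snf1*∆ at 48 hr. With library size alone, directions turned for *GAL4* in *snf1*∆ against WT at 48 hr (-0.41) and in WT after 24 hr (0.093), *GAL3* (-0.69) and *GAL80* (-0.47) in JS1416 against *snf1*∆ at 24 hr, *GAL80* after 24 hr in *snf1*∆ (-0.41) and in JS1416 (0.0027), and *GAL10* (0.73) and *GAL80* (0.41) in the change of the JS1416 effect after 24 hr. Of 1743 alternative values of members, 78 more changed sign with no call in either fit. The cause of these changes was not tested.

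The methods describe aliquots of triplicate cultures at log and 24 hr, but the main tests across times treated the libraries as unpaired. By replicate number, departures from group means at log and 24 hr correlated at 0.0452, -0.002 and 0.0563 in WT. In *snf1*∆ they correlated at 0.226, -0.267 and -0.0401. The replicate block joins equal numbers across strains as well, so it does not model a strain's own cultures. With this block, which has no basis in the labels beyond a shared number, 3 calls changed. *GAL3* in JS1416 against WT at 24 hr was lost (-0.69, adjusted p = 0.0509, 4 members called), *GAL2* fell after 24 hr in WT (-0.47, adjusted p = 0.0299, 3 called), and the change of the JS1416 effect on *GAL80* was lost (-0.52, adjusted p = 0.0637, 2 called).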

Other observations

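The genes whose log2 CPM followed each member most closely over the 24 libraries, which share strains, times and depths, were mostly outside the regulon. Among 5749 or 5750 genes searched, the Pearson correlation was highest with *RME1* for *GAL10* (0.98), with *ENO1* for *GAL7* (0.97), with *ATG36* for *GAL2* (0.97), with *GTO3* for *GAL3* (0.95), with *FRE5* for *GAL80* (0.98) and with *MTL1* for *GAL4* (0.99). *GAL1* alone had another member first, *GAL2* (0.87). Within the regulon, *GAL7* stood at -0.14 with *GAL1* and -0.12 with *GAL2*, against 0.69 with its neighbour *GAL10* and 0.71 with *GAL4*. These are descriptions with no test.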
